A study of Mus musculus with 12 samples.

Results

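The TNF receptor superfamily members described here are 10 genes: Tnfrsf1b, Tnfrsf4, Tnfrsf8, Tnfrsf9, Tnfrsf11b, Tnfrsf14, Tnfrsf18, Tnfrsf25, Cd27 and Fas. They were taken by symbol from the 45703 genes of each deposited table, and all 10 were found in both. RNA was measured in 12 libraries of C57BL/6 mouse CD4 T cells, 3 in each of 4 groups. Th17 KO and Th1 KO cells carry the genotype Slc2a3-fl/fl Cd4-cre, in which Cre under the Cd4 promoter removes floxed Slc2a3, the gene of the glucose transporter GLUT3, during T cell development in the thymus. Th17 WT and Th1 WT cells are labelled wild type, with no statement of whether they carry the floxed allele or the Cre transgene. Naive T cells of all 4 groups had been stimulated with antibodies to CD3 and CD28 for 3 days, with cytokines for Th17 or Th1 differentiation. The age and sex of the mice, and whether replicates came from separate animals, are not given in the labels.

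Receptors of this family bind trimeric ligands of the TNF superfamily with cysteine-rich repeats outside the cell. Most members on T cells recruit TRAF adaptors and ubiquitin ligases to their tails, which leads to NF-kB and MAP kinase activity and serves as costimulation after the T cell receptor has been engaged. A smaller number, here Fas and Tnfrsf25, have a death domain in the tail, and Tnfrsf11b, osteoprotegerin, is secreted and acts as a soluble decoy for RANKL and TRAIL. The receptors OX40, GITR, 4-1BB and CD30, encoded by Tnfrsf4, Tnfrsf18, Tnfrsf9 and Tnfrsf8, are induced on helper T cells by activation, whereas CD27 is already present on naive cells.

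The libraries held 16596283 to 28496606 recovered reads, and 3 reads of a gene with 1 kb of exon equal 0.19 to 0.44 TPM, counting error only. Values are TPM, read counts per exon length scaled to a common total, which can be set side by side between genes. Slc2a3 stood at 3.30 to 18.7 TPM in Th17 KO against 44.6 to 379 TPM in Th17 WT, and at 4.49 to 7.97 TPM in Th1 KO against 64.7 to 398 TPM in Th1 WT. All 10 markers of alpha beta CD4 T cells were present. Of 6 Th17 markers, 5 were higher in Th17 than in Th1 cells in either genotype, and of 6 Th1 markers 4 were lower in Th17 KO than in Th1 KO and 5 in Th17 WT than in Th1 WT, by limma. Th17 KO replicate 2 stood apart: it differed from its group by a median of 0.63 on the log2 scale, where the remaining 11 libraries differed by 0.17 to 0.43, and values without it are given where it matters. WT replicate 1 of either lineage was the highest WT library for Slc2a3. In bulk RNA, more cells that express a gene and more RNA per cell cannot be told apart.

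The members' levels reached from 0.12 to 5445 TPM over the 12 libraries. Tnfrsf4 was the highest of the 10 in every group by mean, ranking 10 among all genes in Th17 KO, 19 in Th17 WT, 14 in Th1 KO and 22 in Th1 WT. Tnfrsf18 came next and Tnfrsf9 after it in every group. These 3 held 95.3% to 98.0% of the members' summed TPM in each library. The sum itself was 7114 to 9258 TPM in Th17 KO against 4249 to 9167 TPM in Th17 WT, and 8878 to 10176 TPM in Th1 KO against 5299 to 8342 TPM in Th1 WT. It thus overlapped between the genotypes in Th17 cells and not in Th1 cells. Fas, Cd27, Tnfrsf25, Tnfrsf8 and Tnfrsf1b had group means between 9.20 and 102 TPM. Tnfrsf14 and Tnfrsf11b were the lowest of the 10 in every group by mean.

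**Figure D1:**
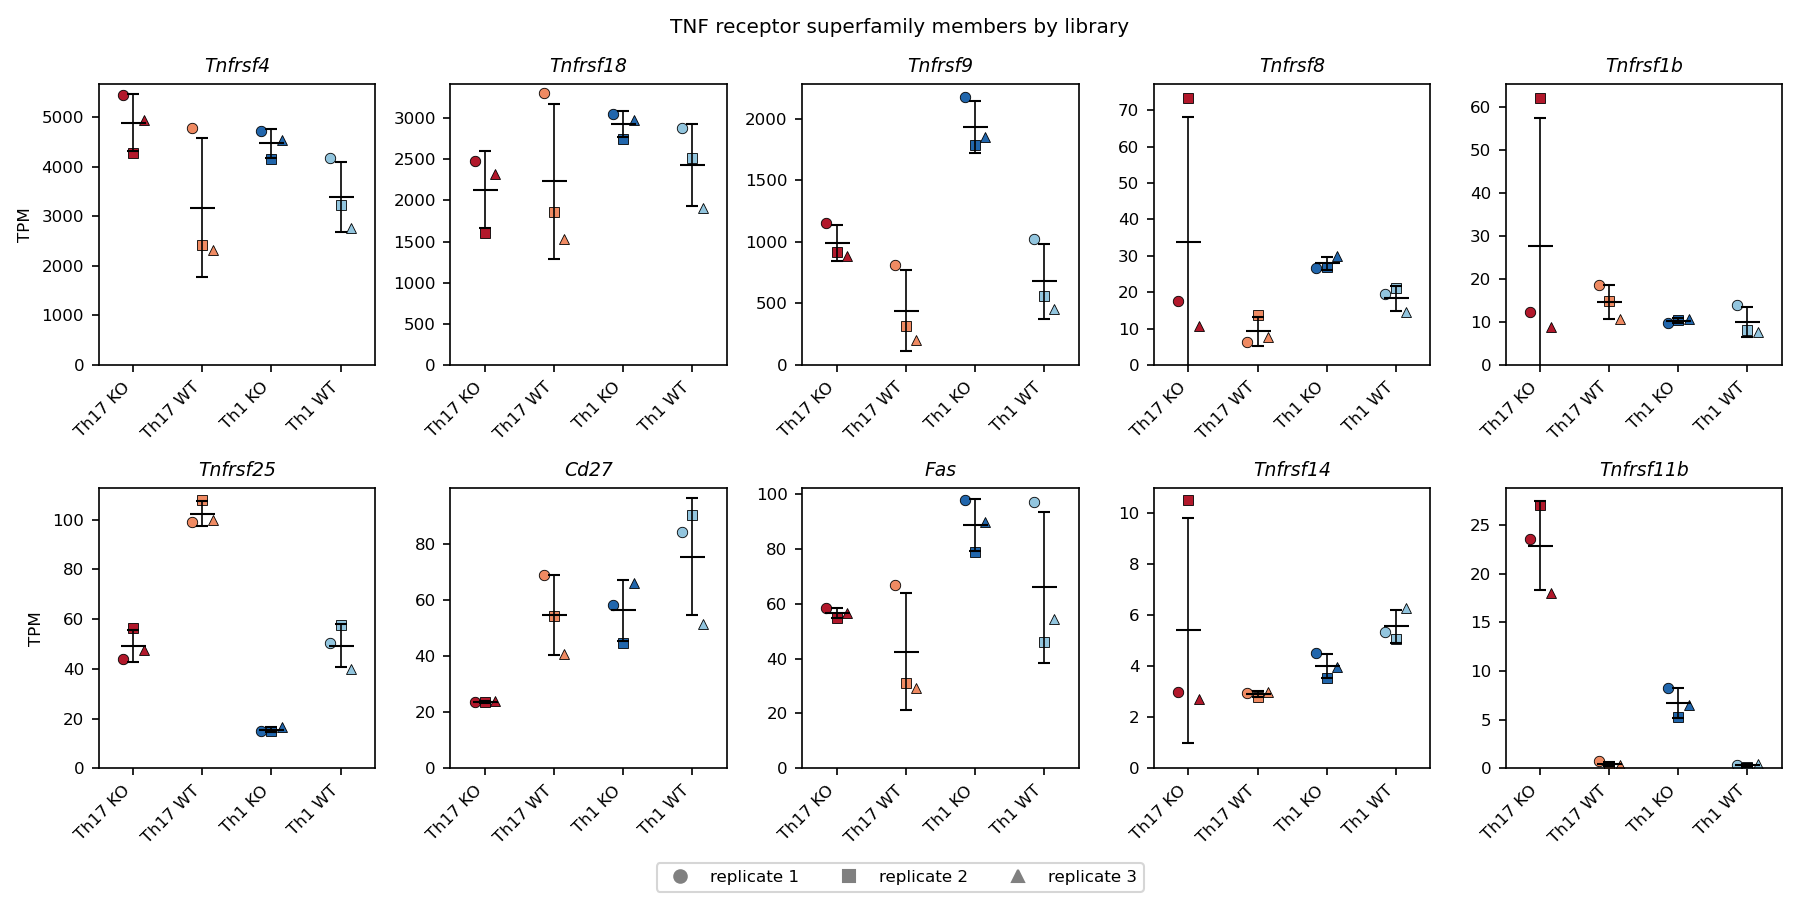
TPM of each member (vertical axis, linear, from 0, its own scale per gene) in the 4 groups (horizontal axis); each point is a library, its shape gives the replicate number, the horizontal bar is the mean and the whisker the SD over 3 libraries, cut off at 0. Tnfrsf25 is lower and Tnfrsf11b higher in every KO library than in every WT library of its lineage, and the wide whiskers of Tnfrsf8, Tnfrsf1b and Tnfrsf14 in Th17 KO come from replicate 2.

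Between KO and WT cells, members changed in both directions. In Th17 cells Tnfrsf11b rose, Tnfrsf25 and Cd27 fell, and 7 members did not pass the test. In Th1 cells Tnfrsf11b, Tnfrsf9 and Tnfrsf8 rose, Tnfrsf25 fell, and 6 did not pass. Tnfrsf11b and Tnfrsf25 are the members that passed in both lineages, each in the same direction. The test was limma on log2(TPM + 1) over all genes that reached 1 TPM in at least 3 of the 6 libraries, with Benjamini-Hochberg adjustment over all of them and a threshold of 0.05. The fold changes given are differences on that log2 scale, which understates the change of low genes.

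The background differed strongly between the lineages. In Th17 cells 7.3% of 13823 tested genes passed (4.6% higher and 2.7% lower in KO), against 3 of the 10 members (1 higher, 2 lower). In Th1 cells 31.3% of 13487 tested genes passed (17.6% higher and 13.7% lower), against 4 of the 10 members (3 higher, 1 lower), so the members' share in Th1 cells is close to that of all genes. Tnfrsf11b entered both tests through its KO libraries alone, since all 6 WT libraries were under 1 TPM, and a gene that enters this way had to differ. The genotypes did not overlap for 4 members in Th17 cells, against 36.7% of all tested genes, and for 5 in Th1 cells, against 47.1%. The median fold change of the members was 0.51 in Th17 and 0.35 in Th1 cells, and that of all tested genes was 0.04 and 0.03.

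**Figure D2:**
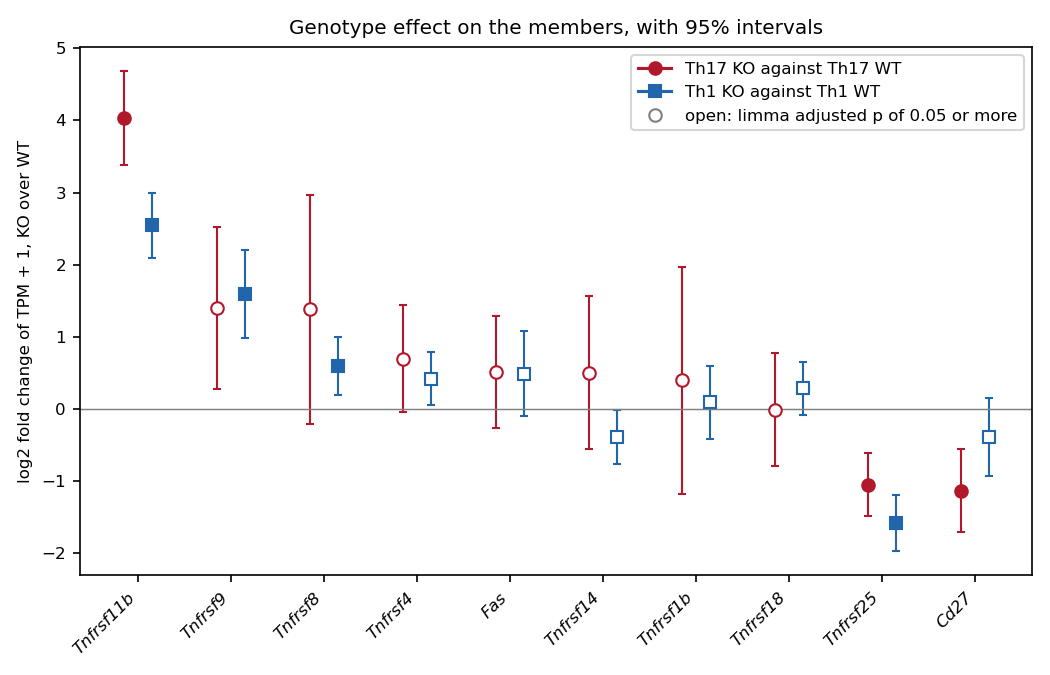
Log2 fold change of TPM + 1, KO over WT (vertical axis), of the 10 members in Th17 cells (red circles) and Th1 cells (blue squares); whiskers are 95% intervals of the limma fit, and open symbols did not pass at an adjusted p of 0.05. Tnfrsf11b lies at 4.04 and 2.54, Tnfrsf25 at -1.05 and -1.59, and the intervals of Tnfrsf1b, Tnfrsf8 and Tnfrsf14 are wide in Th17 cells.

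Tnfrsf9 encodes 4-1BB (CD137), a costimulatory receptor that signals through TRAF1 and TRAF2 and appears on T cells after activation. It had 1155, 920 and 888 TPM in Th17 KO, against 812, 313 and 201 TPM in Th17 WT. In Th1 KO it had 2173, 1782 and 1846 TPM, against 1023, 560 and 450 TPM in Th1 WT. Every KO library was above every WT library in either lineage, and WT replicate 1 came closest to the KO libraries both times. Tnfrsf9 rose in Th1 cells, by 1.60 ± 0.27 (SE, limma adjusted p = 0.00255), and the call held without each library, at 1.35 to 1.94. The fold change was 1.40 ± 0.48 (limma adjusted p = 0.126) in Th17 cells, which did not pass. With the replicate number as a block in the Th17 fit, Tnfrsf9 passed (limma adjusted p = 0.0344). It also passed in a fit of all 12 libraries (limma adjusted p = 0.0384) and without Th17 WT replicate 1 at a fold change of 1.96 (limma adjusted p = 0.0314). Within a replicate number, the KO to WT ratio was 1.42, 2.94 and 4.42 in Th17 cells and 2.12, 3.18 and 4.10 in Th1 cells for numbers 1, 2 and 3. The numbers were not taken to pair KO with WT in Th1 cells, so the Th1 ratios match libraries by number only.

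Tnfrsf4 encodes OX40, which sustains helper T cell survival and memory. It had 5445, 4282 and 4939 TPM in Th17 KO, against 4784, 2417 and 2321 TPM in Th17 WT, and 4728, 4160 and 4527 TPM in Th1 KO, against 4164, 3229 and 2770 TPM in Th1 WT. WT replicate 1 again stood nearest to KO, and in both lineages the groups overlapped through it. The fold changes of 0.70 ± 0.32 in Th17 cells (limma adjusted p = 0.221) and 0.42 ± 0.16 in Th1 cells (limma adjusted p = 0.0783) did not pass, and the 95% interval in Th17 cells ran from -0.05 to 1.45. Without Th1 WT replicate 1 the Th1 difference passed at 0.58. Tnfrsf4 overlaps Sdf4 on the same strand, which stood at 378 to 993 TPM, so reads in the shared stretch could belong to either gene.

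Tnfrsf18 encodes GITR, a costimulatory receptor found at high levels on regulatory and activated T cells. It had 2476, 1604 and 2315 TPM in Th17 KO, against 3308, 1856 and 1536 TPM in Th17 WT, and 3055, 2751 and 2981 TPM in Th1 KO, against 2884, 2510 and 1903 TPM in Th1 WT. The groups overlapped in both lineages. The fold change was -0.01 ± 0.33 in Th17 cells (95% interval -0.79 to 0.77, limma adjusted p = 0.988) and 0.29 ± 0.16 in Th1 cells (-0.08 to 0.66, limma adjusted p = 0.214); without Th1 WT replicate 1 the Th1 difference passed at 0.42. The libraries do not mark strand, and Gm16008 overlaps Tnfrsf18 on the other strand, so reads in the shared stretch could belong to either gene. Gm16008 stood at 46.8 to 102 TPM and had the profile nearest to that of Tnfrsf18 of all genes.

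Cd27 encodes the receptor for CD70 and is lost from T cells late in differentiation. It had 23.5, 23.8 and 24.2 TPM in Th17 KO, against 69.1, 54.3 and 40.6 TPM in Th17 WT. In Th1 KO it had 58.3, 44.7 and 66.0 TPM, against 84.3, 90.5 and 51.6 TPM in Th1 WT. The Th17 KO libraries lay close together and below every WT library, whereas the Th1 groups overlapped. Cd27 fell in Th17 cells, by 1.13 ± 0.25 (SE, limma adjusted p = 0.0379), and in Th1 cells the difference of -0.39 ± 0.24 did not pass (limma adjusted p = 0.247). The Th17 call was lost without any single library other than Th17 KO replicate 2, at differences of -1.33 to -0.95, and with no filter on low values (limma adjusted p = 0.0592). Without Th1 WT replicate 3 the Th1 difference passed at -0.64. Cd27 lies 2.43 Mb from the targeted gene Slc2a3 on chromosome 6. Of the other tested genes within 5 Mb of Slc2a3, 10 of 85 (11.8%) passed in Th17 cells, 9 higher and 1 lower in KO. In Th1 cells 24 of 81 (29.6%) passed, 19 higher and 5 lower. Over all tested genes 7.3% passed in Th17 and 31.3% in Th1 cells. The part of this position in the Cd27 values was not tested.

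Tnfrsf8 encodes CD30, an activation marker of T cells whose ligand CD153 is encoded by Tnfsf8. It had 17.5, 73.4 and 10.7 TPM in Th17 KO, against 6.23, 13.8 and 7.60 TPM in Th17 WT, and 26.7, 26.9 and 30.1 TPM in Th1 KO, against 19.6, 21.1 and 14.4 TPM in Th1 WT. The Th17 groups overlapped and Th17 KO replicate 2 was far above the other libraries, while the Th1 groups did not overlap. Tnfrsf8 rose in Th1 cells, by 0.59 ± 0.18 (SE, limma adjusted p = 0.0328). This call was lost without any 1 of the 3 Th1 KO libraries or Th1 WT replicate 3, with no filter (limma adjusted p = 0.0583), with voom on recovered reads (limma adjusted p = 0.0532) and in a fit of all 12 libraries (limma adjusted p = 0.514). In Th17 cells the difference was 1.38 ± 0.67 (limma adjusted p = 0.251) and 0.60 without Th17 KO replicate 2.

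Tnfrsf1b encodes TNFR2, the receptor for membrane-bound TNF that lacks a death domain. It had 12.2, 61.9 and 8.93 TPM in Th17 KO, against 18.5, 14.95 and 10.7 TPM in Th17 WT, and 9.67, 10.5 and 10.6 TPM in Th1 KO, against 13.9, 8.02 and 7.70 TPM in Th1 WT. The groups overlapped in both lineages. The fold change was 0.40 ± 0.67 in Th17 cells (limma adjusted p = 0.750), -0.42 without Th17 KO replicate 2, and 0.09 ± 0.22 in Th1 cells (95% interval -0.41 to 0.60, limma adjusted p = 0.783).

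Tnfrsf14 encodes HVEM, which binds LIGHT and lymphotoxin alpha of the TNF superfamily and also the immunoglobulin family members BTLA and CD160. It had 3.00, 10.5 and 2.72 TPM in Th17 KO, against 2.95, 2.78 and 3.01 TPM in Th17 WT, and 4.51, 3.56 and 3.97 TPM in Th1 KO, against 5.37, 5.05 and 6.28 TPM in Th1 WT. Apart from Th17 KO replicate 2, the Th17 libraries of both genotypes lay within a narrow range, and the Th1 KO libraries were below all Th1 WT libraries. The fold change was 0.51 ± 0.45 in Th17 cells (limma adjusted p = 0.519), -0.02 without Th17 KO replicate 2. In Th1 cells it was -0.39 ± 0.16 (limma adjusted p = 0.105), and voom on recovered reads called it (limma adjusted p = 0.0414).

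Tnfrsf25 encodes DR3, the death domain receptor for TL1A, which costimulates T cells. It had 43.8, 56.3 and 47.8 TPM in Th17 KO, against 99.2, 108 and 100.05 TPM in Th17 WT. In Th1 KO it had 14.98, 15.1 and 16.8 TPM, against 50.6, 57.5 and 40.1 TPM in Th1 WT. The groups were apart in both lineages, and the KO to WT ratio within a replicate number was 0.44, 0.52 and 0.48 in Th17 cells and 0.30, 0.26 and 0.42 in Th1 cells. As for Tnfrsf9, the Th1 ratios match libraries by number only. Tnfrsf25 fell in Th17 cells by 1.05 ± 0.19 (SE, limma adjusted p = 0.0218) and in Th1 cells by 1.59 ± 0.17 (SE, limma adjusted p = 0.000365). The Th17 call was lost without any single library other than Th17 KO replicate 2, while the difference stayed between -1.14 and -0.97. The Th1 call held without each library, at -1.73 to -1.47.

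Fas encodes CD95, the death domain receptor for Fas ligand that starts caspase 8 activation. It had 58.6, 54.8 and 56.5 TPM in Th17 KO, against 67.0, 31.2 and 29.1 TPM in Th17 WT, and 97.7, 78.7 and 89.6 TPM in Th1 KO, against 97.1, 46.2 and 54.4 TPM in Th1 WT. The groups overlapped in both lineages through WT replicate 1. The differences of 0.51 ± 0.33 in Th17 cells (limma adjusted p = 0.377) and 0.49 ± 0.26 in Th1 cells (limma adjusted p = 0.180) did not pass. Without Th1 WT replicate 1 the Th1 difference passed at 0.81.

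Tnfrsf11b, osteoprotegerin, had 23.6, 27.1 and 18.0 TPM in Th17 KO, against 0.73, 0.29 and 0.33 TPM in Th17 WT. In Th1 KO it had 8.30, 5.33 and 6.56 TPM, against 0.33, 0.12 and 0.50 TPM in Th1 WT. The recovered reads behind these values were 524 to 856 in Th17 KO against 9 to 22 in Th17 WT, and 151 to 364 in Th1 KO against 4 to 14 in Th1 WT, so it was near the floor in WT cells and well counted in KO cells. The mean TPM was 50.9-fold higher in Th17 KO and 21.2-fold higher in Th1 KO. On the log2(TPM + 1) scale it rose by 4.04 ± 0.28 (SE, limma adjusted p = 0.00109) in Th17 cells and by 2.54 ± 0.20 (SE, limma adjusted p = 9.5e-05) in Th1 cells. When a KO library was left out, Tnfrsf11b no longer reached the filter and was not tested. With the same genes tested as in the full fit, the call held without each library in turn, at adjusted p of 0.000155 to 0.0172 in Th17 and 0.000174 to 0.00137 in Th1 cells by limma.

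Whether the genotype effect differed between the lineages was tested as the Th17 effect minus the Th1 effect, in a model of all 12 libraries. None of the 10 members passed by limma, against 0.638% of 14579 tested genes, nor did any by voom on recovered reads. At an unadjusted p under 0.05 there were 2, against 6.38% of all genes. They were Tnfrsf11b, with a difference of 1.49 ± 0.33 (95% interval 0.77 to 2.22, limma adjusted p = 0.0835), and Tnfrsf25, with 0.54 ± 0.24 (0.01 to 1.07, limma adjusted p = 0.766). With a pseudocount of 5 in place of 1, Tnfrsf11b passed at 1.21 (limma adjusted p = 0.0184), as did 0.864% of 14579 tested genes. That was the 1 alternative fit of 18 that called it, and over these fits its limma adjusted p ran from 0.0184 to 0.879. For Tnfrsf9 the difference was -0.20 with an interval of -1.51 to 1.12, and for Cd27 it was -0.74 with an interval of -1.52 to 0.03, so sizeable differences in either direction for Tnfrsf9 are within the error. The median difference was 0.29 for the members and 0.00 for all genes.

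Between the lineages, Tnfrsf25 was the member that set Th17 apart from Th1 in either genotype. In WT cells it was higher in Th17 than in Th1 by 1.05 ± 0.17 (SE, limma adjusted p = 0.00365), at a mean of 102 ± 4.87 against 49.4 ± 8.74 TPM (SD, n = 3 each), and it was the 1 member of 10 that passed, against 3.63% of 14579 tested genes (1.85% higher and 1.78% lower). The other members' differences in WT cells lay between -0.98 and 0.54, with limma adjusted p of 0.364 to 0.824. The lineages did not overlap for Tnfrsf25, which was higher in Th17 WT, and for Tnfrsf8 and Tnfrsf14, which were lower in every Th17 WT library, that is for 3 members against 26.7% of all genes. Without Th17 KO replicate 2, which shares in the estimate of spread, Tnfrsf8 and Tnfrsf14 passed as well. The median difference of the members was -0.32, and that of all genes was 0.14.

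In KO cells 3 of the 10 members passed between the lineages, against 5.91% of 14579 genes (3.35% higher and 2.56% lower). Tnfrsf25 was higher in Th17 KO than in Th1 KO by 1.59 ± 0.17 (SE, limma adjusted p = 0.000122) and Tnfrsf11b by 1.63 ± 0.23 (SE, limma adjusted p = 0.00107). Cd27 was lower in Th17 KO, with a difference of -1.19 ± 0.25 (SE, limma adjusted p = 0.0140), a call that was lost without Th1 KO replicate 1 or 3. The lineages did not overlap for 6 members, against 29.7% of all genes: beside these 3, Tnfrsf9, Tnfrsf18 and Fas were lower in every Th17 KO library than in every Th1 KO library, without passing the test. Tnfrsf9 had the lowest adjusted p among them, at a difference of -0.97 ± 0.43 (limma adjusted p = 0.225). The median difference was -0.03 for the members and 0.13 for all genes.

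The order of the groups differed from gene to gene. Tnfrsf25 ran from 102 TPM in Th17 WT through 49.4 in Th1 WT and 49.3 in Th17 KO, which lie within their spread of each other, to 15.6 in Th1 KO. Cd27 ran from 75.5 TPM in Th1 WT through 56.4 in Th1 KO and 54.7 in Th17 WT to 23.8 in Th17 KO, where the libraries of the first 3 groups overlap. Tnfrsf9 ran from 1934 TPM in Th1 KO through 988 in Th17 KO and 678 in Th1 WT to 442 in Th17 WT, and the Th1 WT libraries overlap with both Th17 groups. Tnfrsf11b ran from 22.9 TPM in Th17 KO to 6.73 in Th1 KO, with both WT groups together near the floor at 0.45 and 0.32.

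Part of the spread within groups was shared between members. In Th17 KO replicate 2 the level of Tnfrsf1b was 5.86 times the mean of the other 2 libraries, that of Tnfrsf8 was 5.19 times and that of Tnfrsf14 was 3.68 times, while the other 7 members stood at 0.67 to 1.30 times. That library also had 335 TPM of Cd4, against 79.6 and 68.0 TPM in the other 2, and it was the highest of its group for 58.5% of all tested genes. Their part in these values was not tested. WT replicate 1 was the highest WT library for Tnfrsf4, Tnfrsf9, Tnfrsf18, Tnfrsf1b and Fas in both lineages. It was also the highest for Slc2a3 in both, at 379 TPM against 109 and 44.6 in Th17 WT and at 398 TPM against 95.6 and 64.7 in Th1 WT, and the part of this in the members' values was not tested. KO replicate 1 was likewise the highest KO library for Tnfrsf4, Tnfrsf9, Tnfrsf18 and Fas in both lineages. Among the KO libraries Slc2a3 was highest in Th17 KO replicate 2 (18.7 TPM) and in Th1 KO replicate 3 (7.97 TPM). Over all tested genes, replicate 1 was the highest for 34.3% in Th17 WT and 37.7% in Th1 WT. In the KO groups replicate 1 was the highest for 13.7% in Th17 and 23.4% in Th1 cells.

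**Figure D3:**
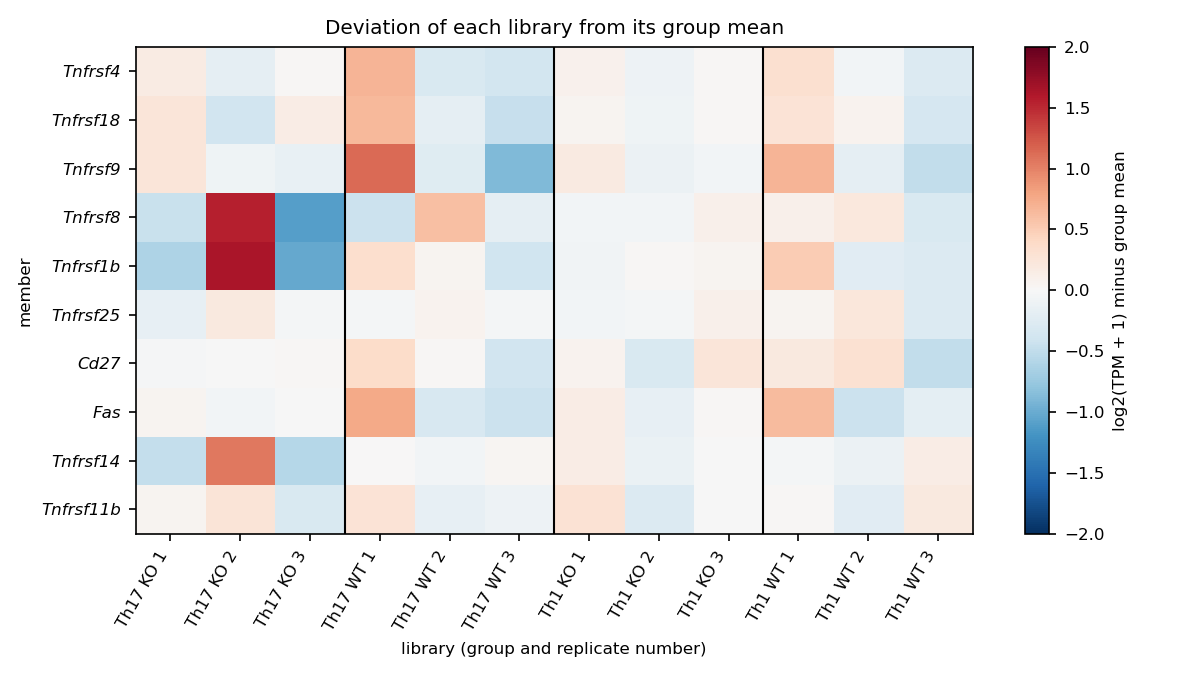
Deviation of each library (columns, 3 per group) from the mean of its group in log2(TPM + 1), for the 10 members (rows); red is above and blue below the group mean. Th17 KO replicate 2 is high for Tnfrsf8, Tnfrsf1b and Tnfrsf14, at 1.56, 1.64 and 1.05, and replicate 1 of both WT groups is high for Tnfrsf9, Tnfrsf4, Tnfrsf18 and Fas.

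Of the 10 genes, 7 lie on mouse chromosome 4, within 10.82 Mb between positions 145212368 and 156028894 of GRCm38.p6. Tnfrsf1b (145212368 to 145246870, minus strand) and Tnfrsf8 (145267132 to 145315164, minus) are 20.3 kb apart, and Tnfrsf4 (156013595 to 156016613, plus) and Tnfrsf18 (156026322 to 156028894, plus) are 9.7 kb apart. Between the pairs lie Tnfrsf9 (150920155 to 150946104, plus), Tnfrsf25 (152115528 to 152120119, plus) and Tnfrsf14 (154918487 to 154928620, minus). Tnfrsf11b lies on chromosome 15 (54250619 to 54278484, minus), Cd27 on chromosome 6 (125232620 to 125237136, minus) and Fas on chromosome 19 (34290647 to 34327775, plus). The genes of the stretch did not move as a block: in Th1 cells Tnfrsf8 and Tnfrsf9 rose, Tnfrsf25 fell and the other 4 did not pass. Of the other tested genes in the stretch, 4 of 122 (3.28%) passed in Th17 cells and 28 of 116 (24.1%) in Th1 cells. Over all tested genes these shares were 7.3% and 31.3%.

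Promoter sequence is shown for 3 members that changed, as a stretch outside annotated exons and the gene itself or as a site of 30 bases, so that letters for transcription factors of activated T cells can be seen in place. RefSeq windows on GRCm38.p6 were at hand for 9 of the 10 members, 11 starts in all, and the 250 bases before each start were searched on both strands for the consensus of NF-kB (kappaB), for the AP-1 letters TGANTCA and for the STAT letters TTCNNNGAA; the motifs were allowed to overlap. Over all 32851 such windows, 3.9% hold the first, 6.75% the second and 7.02% the third. The kappaB consensus was found in 2 members, Tnfrsf8 and Tnfrsf9, the AP-1 letters in 3 and the STAT letters in 5. A match is a description of letters and not a site of binding. The Tnfrsf8 stretch is the full 250 bases (chr4:145315165-145315414, minus strand), with the kappaB and AP-1 matches in capitals; they begin 168 and 132 bases before the start.
Tnfrsf8: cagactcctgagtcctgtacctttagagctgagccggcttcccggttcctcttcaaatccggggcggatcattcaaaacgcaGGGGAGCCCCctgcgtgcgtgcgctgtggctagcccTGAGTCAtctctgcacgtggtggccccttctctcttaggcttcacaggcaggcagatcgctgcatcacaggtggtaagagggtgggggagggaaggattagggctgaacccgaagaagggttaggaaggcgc
The Tnfrsf9 stretch is 30 bases around a pair of overlapping kappaB matches, in capitals, 43 and 42 bases before the second RefSeq start inside the gene (chr4:150927947-150927976, plus strand). The 250-base window of this second start overlaps a GENCODE exon of Tnfrsf9. The window of the first Tnfrsf9 start held none of the 3 motifs.
Tnfrsf9: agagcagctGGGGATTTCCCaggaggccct
The Cd27 stretch is 141 bases just outside the gene (chr6:125237137-125237277, minus strand), and the Cd27 window held none of the 3 motifs.
Cd27: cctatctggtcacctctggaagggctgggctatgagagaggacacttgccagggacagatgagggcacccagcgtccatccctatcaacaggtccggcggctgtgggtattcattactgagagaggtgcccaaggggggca

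The genes whose profiles over the 12 libraries were most like those of the members were found by the root mean square difference of values scaled to mean 0 and SD 1, among 14578 other genes. For Tnfrsf9 they were Atg3 (0.28), Il7r (0.29) and Atf3 (0.30), against a median of 1.40 over all genes. Among the members, Fas was nearest to Tnfrsf9 at 0.41, rank 24 of all genes, followed by Tnfrsf4 at 0.52. For Tnfrsf25 the nearest genes were Eaf2 (0.26), Zfp358 (0.27) and Ccr4 (0.28), and for Fas they were Errfi1 (0.20), Mbnl2 (0.28) and Lgals3 (0.29). Tnfrsf4 was nearest to Nrn1 (0.33), Tnfrsf8 to Tmem229b-ps (0.21), Tnfrsf1b to Zfp319 (0.15), Tnfrsf14 to Gm8369 (0.25), and Cd27 to Mir8113 (0.20), which overlaps Cd27 on the same strand, so reads in the shared stretch could belong to either. Without Th17 KO replicate 2, Zfp319 was at 0.29 from Tnfrsf1b, rank 4 of all genes, and Cybc1 was nearest at 0.25. These distances describe libraries that share group and replicate, and carry no test.

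The ligands of the members were far from uniform, and several rose in KO cells. Of 12 tested ligand genes, 7 rose and 0 fell in Th17 cells, and 7 rose and 0 fell in Th1 cells; 4.6% and 17.6% of all tested genes rose in these comparisons. The median fold changes of the ligand genes were 1.38 and 0.61, and those of all genes 0.04 and 0.03. Fasl, Cd160 and Tnfsf10 passed the filter in Th17 cells through their KO libraries alone. With 1 library left out, 2 to 5 ligand genes rose in Th17 cells and 4 to 6 in Th1 cells. Tnfsf9, the 4-1BB ligand of Tnfrsf9, had 261, 184 and 264 TPM in Th17 KO, against 18.3, 11.6 and 17.2 TPM in Th17 WT. In Th1 KO it had 410, 394 and 349 TPM, against 21.0, 9.92 and 12.4 TPM in Th1 WT. It rose by 3.83 ± 0.26 (limma adjusted p = 0.00109) and 4.70 ± 0.24 (limma adjusted p = 2.2e-05), so the ligand and, in Th1 cells, its receptor both passed in the same direction. Cd70, the ligand of Cd27, rose by 1.53 ± 0.23 in Th17 cells (limma adjusted p = 0.0135) and by 3.26 ± 0.24 in Th1 cells (limma adjusted p = 7.6e-05), the opposite direction to Cd27 in Th17 cells.

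Tnfsf8, the ligand of Tnfrsf8, had 180, 179 and 128 TPM in Th17 KO, against 25.0, 34.2 and 23.7 TPM in Th17 WT, a rise of 2.51 ± 0.24 (limma adjusted p = 0.00267). In Th1 cells it had 41.0, 38.2 and 49.9 TPM in KO, against 34.4, 32.4 and 35.8 TPM in WT (0.32 ± 0.15, limma adjusted p = 0.152). The effect differed between the lineages by 2.19 (limma adjusted p = 0.00465), a call that held without each library. For Tnfrsf8 the effect was not shown to differ between the lineages (0.79 ± 0.75, SE, limma adjusted p = 1.0). Tnfsf4, the OX40 ligand, rose in Th17 cells to 20.8, 16.9 and 21.7 TPM in KO, against 1.86, 3.94 and 5.33 TPM in WT (2.21 ± 0.35, limma adjusted p = 0.0150), and did not pass in Th1 cells (0.44, limma adjusted p = 0.336). Fasl rose by 1.45 ± 0.27 in Th17 cells (limma adjusted p = 0.0235) and by 0.64 ± 0.20 in Th1 cells (limma adjusted p = 0.0363).

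Lta, which encodes lymphotoxin alpha, a ligand of Tnfrsf1b and Tnfrsf14, rose by 1.02 ± 0.19 in Th17 cells (limma adjusted p = 0.0224) and by 2.25 ± 0.12 in Th1 cells (limma adjusted p = 2.2e-05), a difference between lineages of -1.24 (limma adjusted p = 0.0176). That difference was no longer called without Th17 WT replicate 3, any 1 of the 3 Th1 KO libraries, or Th1 WT replicate 2 or 3. Tnf rose in Th1 cells by 1.92 ± 0.24 (limma adjusted p = 0.000643). Tnfsf10 and Tnfsf11, whose products TRAIL and RANKL are bound by osteoprotegerin, rose in Th1 cells by 0.57 ± 0.18 (limma adjusted p = 0.0382) and 0.92 ± 0.31 (limma adjusted p = 0.0499). The genes for the Tnfrsf14 partners LIGHT and BTLA did not pass in either lineage, and Cd160 rose in Th17 cells by 1.63 ± 0.34 (limma adjusted p = 0.0350). Tnfsf15, which encodes the Tnfrsf25 ligand TL1A, stayed at or under 0.54 TPM and was not tested, and the GITR ligand gene Tnfsf18 was listed at 0 in all 12 libraries. In Th17 cells the calls of Lta, Tnfsf4, Cd70, Fasl and Cd160 were each lost without Th17 WT replicate 2 or Th17 WT replicate 3. Lta and Tnfsf4 were also lost without Th17 KO replicate 1 or 3, Cd70 without Th17 KO replicate 1, and Fasl and Cd160 without Th17 WT replicate 1. Without a Th17 KO library Fasl and Cd160 no longer reached the filter, and with the genes of the full fit tested both were lost without Th17 KO replicate 1. The calls of Tnfsf9 and Tnfsf8 held without each. In Th1 cells those of Tnfsf9, Lta, Cd70 and Tnf held without each, and those of Fasl, Tnfsf10 and Tnfsf11 were lost without any 1 of the 3 Th1 KO libraries or Th1 WT replicate 2; without Th1 WT replicate 3 the Fasl and Tnfsf11 calls were lost, and without Th1 WT replicate 1 that of Tnfsf10.

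**Figure D4:**
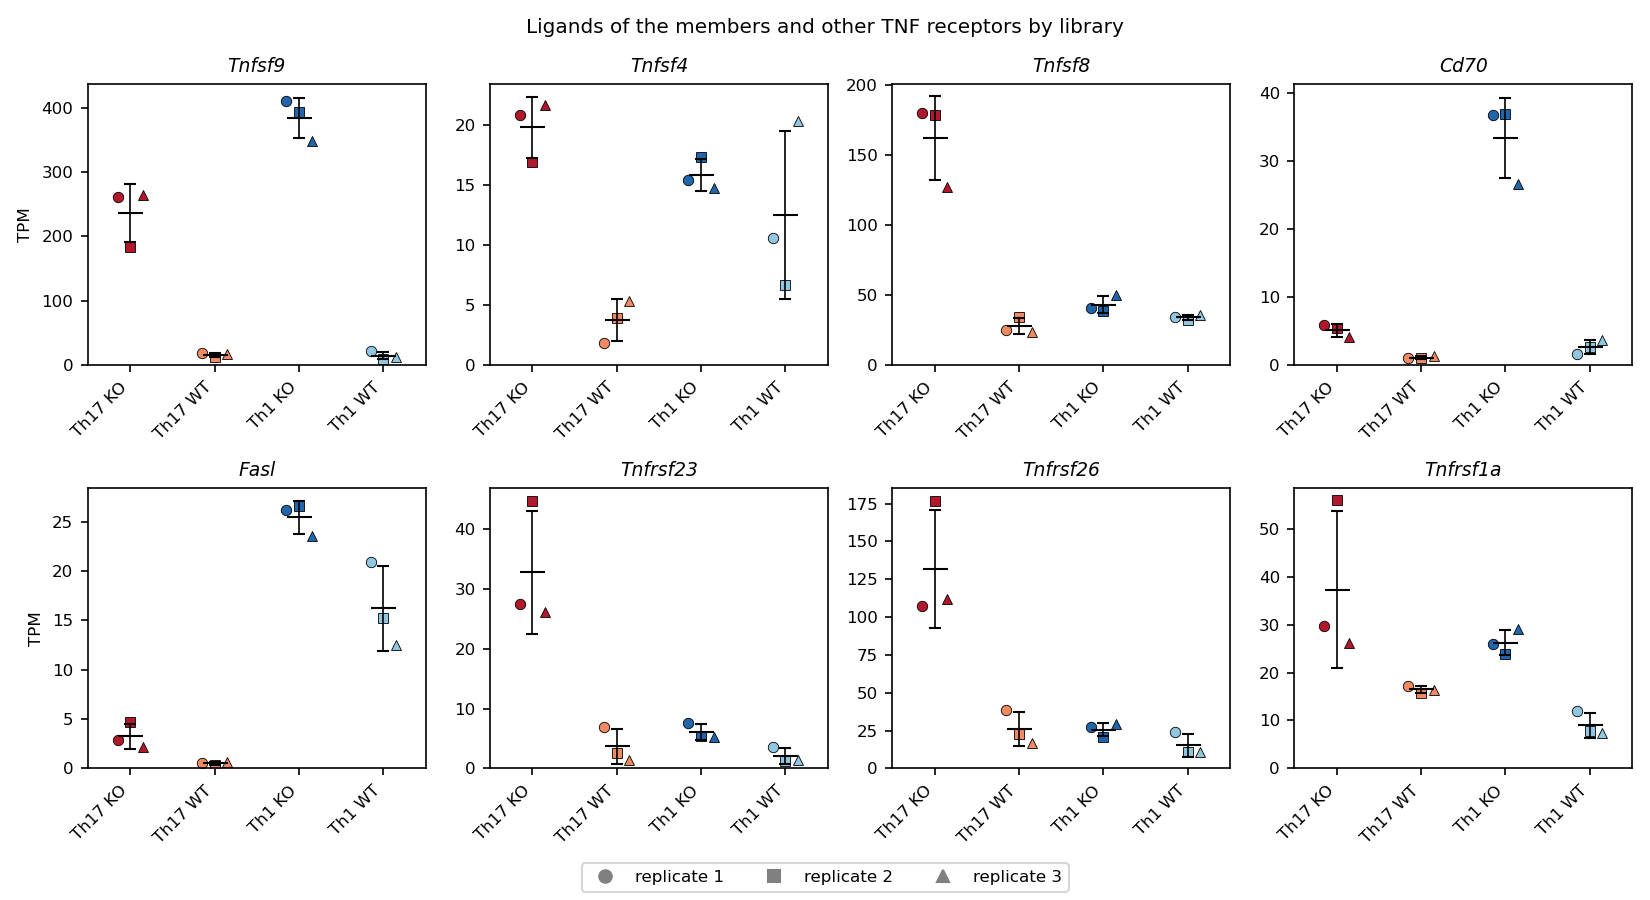
TPM (vertical axis, linear, from 0, its own scale per gene) of 5 ligand genes and 3 other TNF receptor genes in the 4 groups; points are libraries with the replicate number as shape, the bar is the mean and the whisker the SD over 3 libraries. Tnfsf9 is high in all KO libraries of both lineages, Tnfsf8 in Th17 KO, and Tnfrsf23 and Tnfrsf26 in Th17 KO.

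Of 18 other receptors of the family, those at 1 TPM or more in enough libraries were 9 in Th17 and 10 in Th1 cells, of which 2 and 5 rose and 0 fell; the median fold changes were 0.82 and 0.68. Of all tested genes 4.6% rose in Th17 and 17.6% in Th1 cells. With 1 library left out the counts were 0 to 5 in Th17 and 2 to 4 in Th1 cells, and Cd40, Tnfrsf12a and Relt were the Th1 calls lost without Th1 KO replicate 1 or 2. Tnfrsf23, which encodes a mouse decoy receptor for TRAIL, had 27.4, 44.7 and 26.2 TPM in Th17 KO, against 7.00, 2.64 and 1.45 TPM in Th17 WT (2.98 ± 0.47, limma adjusted p = 0.0150). It rose in Th1 cells too (1.29 ± 0.29, limma adjusted p = 0.00910). Tnfrsf26 had 107, 177 and 112 TPM in Th17 KO, against 38.5, 23.0 and 16.9 TPM in Th17 WT (2.33 ± 0.35, limma adjusted p = 0.0129). Both Th17 calls were lost without Th17 KO replicate 1, Th17 WT replicate 2 or Th17 WT replicate 3. Tnfrsf1a, the death domain receptor for TNF, rose in Th1 cells by 1.47 ± 0.20 (limma adjusted p = 0.00101), where Tnfrsf1b did not pass. Like Cd27, Tnfrsf1a lies within 5 Mb of Slc2a3 on chromosome 6 (125349723 to 125362483). The part of this position in its values was not tested.

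Downstream of the receptors, the TRAF adaptors and ubiquitin ligases passed for 0 of 14 genes in Th17 cells and rose for 2 of 14 in Th1 cells, with median fold changes of 0.16 and 0.20. In Th17 cells 2 had an unadjusted p under 0.05 by limma, and voom called 0. The 2 that rose in Th1 cells were Birc2 (0.98, limma adjusted p = 0.00521) and Traf1 (0.97, limma adjusted p = 0.0103), the ubiquitin ligase cIAP1 and an adaptor of Tnfrsf9. Of the death domain pathway 5 of 10 tested genes rose in Th1 cells, with Casp8 (0.63, limma adjusted p = 0.00665) among them. Of 12 NF-kB subunits and kinases 2 rose in Th17 cells and 4 in Th1 cells, where Nfkb2 had the smallest adjusted p (1.37, limma adjusted p = 0.000762). Both Th17 calls, Nfkb1 and Tab2, were lost without any single library other than Th17 KO replicate 2. In Th1 cells Nfkb2 held without each library, and Tab2, Relb and Chuk were lost without any 1 of the 3 Th1 KO libraries or Th1 WT replicate 2. Of 11 feedback inhibitors of NF-kB none passed in Th17 cells by limma (4 at an unadjusted p under 0.05, and 1 called by voom), while 3 rose and 1 fell in Th1 cells. The 1 that fell was Tnip3, with 1.71, 3.32 and 2.34 TPM in Th1 KO, against 39.4, 50.8 and 70.8 TPM in Th1 WT (-3.97 ± 0.25, limma adjusted p = 3.9e-05). With 1 library left out, the genes that rose in Th1 cells were 2 to 3 of the TRAF list, 2 to 5 of the death domain list and 2 to 5 of the feedback inhibitors. These shares of genes that rose in Th1 cells are to be read against the 17.6% of all tested genes.

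Markers of other cells and of the lineages moved with the genotype. Gamma delta T cell markers rose for 4 of 5 genes in Th17 and 5 of 5 in Th1 cells, with a summed level of 166 to 261 TPM in Th17 KO against 17.3 to 20.4 TPM in Th17 WT, and of 173 to 276 TPM in Th1 KO against 14.6 to 33.6 TPM in Th1 WT; none of the 5 was at 0 in all libraries of a group. Trdv4 entered both tests through its KO libraries alone. Of 6 tested CD8 and NK cell markers 2 rose in Th17 cells, and 4 rose and 2 fell in Th1 cells (summed 90.7 to 108 TPM in Th17 KO against 49.1 to 64.2 TPM in Th17 WT, and 195 to 283 TPM in Th1 KO against 62.1 to 78.5 TPM in Th1 WT), with Klrb1c at most 0.56 TPM and Eomes tested through its KO libraries alone. Of the tested myeloid markers 3 of 5 rose in Th17 and 2 of 3 in Th1 cells (44.2 to 65.9 TPM in Th17 KO against 12.5 to 14.7 TPM in Th17 WT, and 25.4 to 46.4 TPM in Th1 KO against 10.9 to 14.2 TPM in Th1 WT), with Csf1r, Itgam, Adgre1, Flt3 and Itgax under 1 TPM in every library. Of the tested B cell markers 1 of 5 rose in Th17 cells and 0 of 5 in Th1 cells (2 at an unadjusted p under 0.05 by limma, 0 called by voom). Their summed level was 132 to 198 TPM in Th17 KO against 114 to 153 TPM in Th17 WT, and 332, 475 and 68.4 TPM in Th1 KO against 88.1, 112 and 89.5 TPM in Th1 WT, with a median fold change of 1.21 in Th1 cells. Th1 KO replicates 1 and 2 were thus above every Th1 WT library and replicate 3 below, and 5 of 5 tested B cell markers rose without replicate 3. Of the stromal markers 1 of 2 rose in Th17 and 3 of 3 in Th1 cells, Dcn tested there through its KO libraries alone, with Col3a1 listed at 0 in all 12 libraries. Regulatory T cell markers rose for 2 of 6 in Th17 and 4 of 6 in Th1 cells, and Foxp3 was not among them. Of 7 naive T cell markers 1 rose in Th17 cells, Klf2. In Th1 cells 3 of the 7 rose, Klf2 and Il7r among them, and the median fold change of the list was -0.02. There the Il7r call held without each library and the Klf2 call did not. Th1 markers rose for 3 of 6 genes in Th17 cells (4 by voom), with a summed level of 112 to 414 TPM in Th17 KO against 45.6 to 72.9 TPM in Th17 WT, and 5 rose and 1 fell in Th1 cells. Ifng, the gene of interferon gamma, had 73.2, 119 and 54.7 TPM in Th17 KO, against 4.64, 1.99 and 3.77 TPM in Th17 WT (4.20 ± 0.38, limma adjusted p = 0.00211). Of the 6 Th17 markers none passed in Th17 cells by limma (3 at an unadjusted p under 0.05, 1 called by voom), and in Th1 cells 3 rose and 2 fell, with Il17a and Il17f tested through their KO libraries alone. The summed level of the Th17 markers was 477 to 660 TPM in Th17 KO against 667 to 1191 TPM in Th17 WT. Every Th17 KO library was thus below every Th17 WT library, and the median fold change was -0.39. In Th1 cells the sum was 11.1 to 29.1 TPM in KO against 22.5 to 25.0 TPM in WT. Immediate early genes, a sign of recent stimulation, rose for 7 of 16 in Th17 and 15 of 17 in Th1 cells. Of all tested genes 4.6% rose in Th17 and 17.6% in Th1 cells. With 1 library left out, the marker counts in Th17 cells were 4 for the gamma delta list, 1 to 4 for the Th1 list and 4 to 9 for the immediate early genes, and reached 0 for the CD8 and NK, myeloid, B cell, stromal, regulatory and naive lists. In Th1 cells the genes that rose were then 4 to 5 of the gamma delta list, 5 of the Th1 list and 14 to 15 immediate early genes. They were 3 to 4 for the CD8 and NK list, 2 for myeloid, 0 to 5 for B cell and 1 to 3 for stromal markers. The regulatory list had 4, the naive list 1 to 3 and the Th17 list 0 to 3. The part of these cells, of lineage identity or of stimulation in the members' values was not tested.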

How the data were processed

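RNA from 12 libraries was measured with SMART-Seq v4 and Nextera XT, single-end and without strand, per the labels' protocols. Per the submitters' processing notes, the build was GRCm38.p6, and STAR 2.7.2b, featureCounts 1.6.4 and cutadapt are among the tools listed, with no roles given. The authors deposited 1 table of 45703 genes per lineage with TPM values (other columns give exon length). TPM sums to the same total in every library, so the tables were joined, and levels across lineages rest on that. TPM times exon length gave whole reads within 0.02, the recovered reads. The members and gene lists were chosen with earlier results of these data known.

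limma 3.58.1 (R 4.3.3) was fitted to log2(TPM + 1) with a mean-variance trend, two-sided, on genes that reached 1 TPM in 3 or more libraries: 6 libraries for a genotype comparison, 12 for the interaction and the lineage comparisons. The steps were tested on simulated data. Alternatives were pseudocounts of 0.1 and 5, no filter, median-of-ratios scaling, voom, a replicate block, and each library left out; a 12-library genotype fit, leaving out libraries while keeping the genes tested, counts of list genes with libraries left out, and nearest profiles without Th17 KO replicate 2 were chosen after seeing the data. Named genes were the members, their ligands, up to 4 genes per list by smallest adjusted p, and the nearest profiles. Nothing in the labels ties replicates to separate animals or cultures, so p-values cover only the variation among these 12 libraries, part of which may be technical. The Th17 result of the death domain pathway list is not reported here. No pair of replicates had counts so close as to be the same library.

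Same-numbered libraries deviated together between Th17 KO and Th17 WT (correlations 0.14, 0.41 and 0.23) and between Th17 WT and Th1 WT (0.72, 0.26 and 0.53), so the numbers were taken to pair them, from the data alone. Th1 KO and Th1 WT (0.16, 0.21 and -0.07) and Th17 KO and Th1 KO (0.22, -0.04 and -0.19) did not meet this. The main fits hold no term for the replicate number, so they leave this pairing out. The replicate block was run as an alternative, and Tnfrsf9 in Th17 cells is the member whose call depends on that choice.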

Additional observations from a re-analysis of the deposited data

Results flagged for a closer look

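Tnfsf8 differed between the lineages in the difference between KO and WT by 2.19 on the log2 scale (limma interaction, adjusted p = 0.00465), with 180, 179 and 128 TPM in Th17 KO against 25.0, 34.2 and 23.7 TPM in Th17 WT. Lta differed in the other direction, by -1.24 (limma interaction, adjusted p = 0.0176), with 2063, 1868 and 1985 TPM in Th1 KO against 432, 412 and 395 TPM in Th1 WT. The Tnfsf8 call held without each library, and the Lta call was lost without Th17 WT replicate 3, any 1 of the 3 Th1 KO libraries, or Th1 WT replicate 2 or 3. The groups of 3 libraries are too small for a check of single outlying values.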

How the results depend on the processing

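With 3 libraries a group, single libraries decide several calls. Leaving out 1 library at a time gave 0 to 3 members called for Th17 KO against Th17 WT, 2 to 7 for Th1 KO against Th1 WT, 0 for the lineage difference of the KO effect, 1 to 3 for Th17 WT against Th1 WT and 2 to 3 for Th17 KO against Th1 KO; the counts over all tested genes moved too, from 109 to 2158 for Th17 and from 2594 to 4587 for Th1 genotype comparisons. The 7 in Th1 cells came without Th1 WT replicate 1, and the 0 in Th17 cells without Th17 KO replicate 1 or 3. Between the lineages, the counts over all tested genes ran from 309 to 1582 in WT and from 449 to 1219 in KO cells. A pseudocount of 5 gave 1 member with a lineage difference of the KO effect, Tnfrsf11b, against 0.864% of 14579 tested genes. The replicate block gave 4 members in Th17 cells, with Tnfrsf9 added, and changed no other count: 4 in Th1 cells, 0 for the lineage difference, 1 between WT lineages and 3 between KO lineages.

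Directions that turned were all of differences that had not passed. Median-of-ratios scaling turned Fas in the lineage difference of the KO effect to -0.0029, and Tnfrsf4 and Tnfrsf14 in Th17 KO against Th1 KO to -0.073 and -0.0211, and voom turned Tnfrsf14 there to -0.0161. Over single libraries left out, Th17 KO against Th17 WT ranged from -0.42 to 0.91 for Tnfrsf1b, -0.0206 to 0.79 for Tnfrsf14 and -0.24 to 0.31 for Tnfrsf18 (0.18 without Th17 KO replicate 2), and Th1 KO against Th1 WT from -0.0439 to 0.35 for Tnfrsf1b (-0.0181 without Th1 WT replicate 2). The lineage difference of the KO effect ranged from -0.52 to 0.81 for Tnfrsf1b, -0.64 to 0.37 for Tnfrsf9, -0.53 to 0.0238 for Tnfrsf18 and -0.29 to 0.39 for Fas. Th17 WT against Th1 WT ranged from -0.50 to 0.0263 for Tnfrsf4 and -0.51 to 0.0474 for Tnfrsf18, and Th17 KO against Th1 KO from -0.97 to 0.36 for Tnfrsf8 and -0.37 to 0.44 for Tnfrsf14. The cause was not tested beyond the fewer libraries.

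Median-of-ratios scaling moved the median difference of all genes between lineages to -0.0028 from 0.14 in WT and to -0.04 from 0.13 in KO, and the share of calls that are higher in Th17 to 37.2% from 51% and to 45.5% from 56.7%; Tnfrsf25 passed there too, at 0.88 and 1.40. With voom 71.2% of calls in the lineage difference were higher, against 54.8%. Low counts limit Tnfrsf11b in WT cells, at 4 to 22 reads.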
